A study of Mus musculus with 21 samples.

Results

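The genes of oxidative phosphorylation were followed through mouse liver and RAW264.7 cells given lipopolysaccharide (LPS). Members were taken by symbol: those starting Nduf, Uqcr, Cox4 to Cox8, Atp5, mt-Nd, mt-Co, mt-Cyb or mt-Atp, together with Sdha, Sdhb, Sdhc and Sdhd, and leaving out pseudogene symbols that contain -ps. The rule reads symbols alone. It gave 109 of the 35550 genes listed for the cell line, 97 encoded in the nucleus and 12 in the mitochondrial genome, and 8 of the 5298 genes listed for liver. The nuclear members held 7 core subunits, 32 accessory subunits and 8 assembly factors of complex I, 4 subunits of complex II, 8 of complex III, 21 of complex IV and 17 of ATP synthase. The annotation lists 4 of them as processed pseudogenes, Ndufa11b, Ndufb4c and Ndufs6b among the accessory subunits and Cox6c2 in complex IV. The cytochrome b gene is listed as mt-Cytb, which the letters mt-Cyb do not match, and is given with the other pathway genes.

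Oxidative phosphorylation makes ATP at the inner mitochondrial membrane. Complex I oxidises NADH and complex II oxidises succinate, electrons pass through complex III and cytochrome c to complex IV, which reduces oxygen, and ATP synthase uses the proton gradient that this builds. Most subunits are encoded in the nucleus and imported, while a small set of membrane subunits of complexes I, III, IV and ATP synthase is transcribed inside the organelle as long polycistronic RNAs. Macrophages activated by LPS are known to shift from respiration towards glycolysis, with succinate handled at complex II as part of the response.

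RNA sequencing values came from RAW264.7, a mouse macrophage-like line, and from whole liver of C57BL/6J mice. At 24 h wild-type (WT) cells received PBS, LPS at 1 µg/mL, or LPS at 1 µg/mL with 0.5 mM of the agent labelled CTM, and at 12 h WT and Vim-KO cells received PBS or LPS at 1 µg/mL, with 2 libraries in each of these 7 groups. Liver had 1 library in each of 7 groups: WT with PBS, with 30 mg/kg LPS, or with 30 mg/kg LPS and 100 mg/kg CTM, all injected into the peritoneum; WT with LPS without or with depletion of liver macrophages, for which no dose is given; and TG2-KO with PBS or 30 mg/kg LPS. The labels do not give the ages of the mice or whether the Vim-KO cells are 1 clone, and nothing in them ties the libraries of a group to separate cultures, so the spread between them, which is all that p-values measure here, may be technical.

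Values are TPM (transcripts scaled for gene length and to a fixed total per library), a level that holds no read count, which leaves sequencing depth unknown. In the 12 h experiment Vim, the targeted gene, stood at 1930.1 and 1877 TPM with PBS and 1375 and 1461 with LPS in WT cells, against 17.0 and 18.7 and 30.8 and 33.0 in Vim-KO cells. Tgm2 stood at 0.74 and 15.5 TPM in TG2-KO liver and between 35.7 and 429 in WT liver. All 8 macrophage markers were present in every cell line group, and the 6 hepatocyte markers summed to at most 0.641 TPM. The macrophage marker sum, led by Lyz2, moved between groups: it was 9859 to 10144 TPM with PBS and 12311 to 12439.6 with LPS at 24 h, and 16458 to 16554 in WT and 8005 to 8130.4 in Vim-KO cells with PBS at 12 h. The sum hides opposite directions. By group means at 24 h, Lyz2 (7216 to 9691 TPM), Cd68, Itgam and Ptprc were higher with LPS. Csf1r (1423 to 784 TPM), Spi1, Fcgr3 and Adgre1 were lower. The part of these markers in the results below was not tested.

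Mitochondrial members lie close together on their genome, and 4 pairs of neighbours share bases, which matters for values that divide reads between them. Of the pairs on 1 strand, mt-Atp8 and mt-Atp6 share 43 bases, mt-Nd4l and mt-Nd4 share 7, and mt-Atp6 and mt-Co3 share 1. The junctions with 43 and 7 shared bases are shown, with the shared bases in capitals (GENCODE annotation and transcripts, GRCm38).
mt-Atp8 into mt-Atp6 (chrM:7907-7989, plus strand): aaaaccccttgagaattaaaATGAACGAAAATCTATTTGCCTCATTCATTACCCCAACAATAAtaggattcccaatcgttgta
mt-Nd4l into mt-Nd4 (chrM:10147-10193, plus strand): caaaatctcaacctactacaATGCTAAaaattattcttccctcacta

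Nuclear members are scattered over 19 chromosomes, so any letters they share near their starts are of interest. RefSeq windows (GRCm38.p6, 250 bases before a start and 50 after) were matched for 76 of the 97. The letters GCGC, then any base, then TGCGC, known for the factor NRF1, were found on either strand in 19 of the 76 (25.0%) against 5.19% of the 27025 genes with such a window, and CCGGAAG, known for ETS factors, in 18 (23.7%) against 9.93%. GGGCGG (SP factors) was found in 46.1% against 38.2%, and TATAAA in 9.21% against 15.7%. A match is a description of letters and not of a bound site. Stretches that hold no annotated exon are shown for 5 members whose levels are described below: Sdha and Sdhd of complex II, which fell, Cox7a2l and Ndufs4, which rose in part of the comparisons, and Cox5a, which differed between genotypes. They are written 5′ to 3′ along the gene, with capitals for the NRF1 letters (in Sdha) and the ETS letters (in Sdhd), both of which lie on the opposite strand and so read as their reverse complements.
Sdha (chr13:74350281-74350308, minus strand): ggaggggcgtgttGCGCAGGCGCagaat
Sdhd (chr9:50603850-50603909, minus strand): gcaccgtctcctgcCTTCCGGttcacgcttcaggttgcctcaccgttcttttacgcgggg
Cox7a2l (chr17:83514334-83514433, minus strand): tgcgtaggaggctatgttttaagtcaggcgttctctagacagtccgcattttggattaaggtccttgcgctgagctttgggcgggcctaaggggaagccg
Ndufs4 (chr13:114388259-114388344, minus strand): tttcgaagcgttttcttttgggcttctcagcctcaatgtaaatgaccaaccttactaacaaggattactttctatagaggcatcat
Cox5a (chr9:57521132-57521231, plus strand): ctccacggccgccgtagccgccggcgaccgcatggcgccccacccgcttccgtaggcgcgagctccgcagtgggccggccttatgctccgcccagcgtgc

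In resting cells the mitochondrial members were the most abundant. Their 12 genes summed to 60778 and 63741 TPM in the 24 h PBS libraries (6.08% and 6.38% of all TPM listed), against 23444 and 23148 TPM for the 97 nuclear members. Among nuclear members Atp5b, the catalytic beta subunit of ATP synthase, stood at 1285 and 1299 TPM and Cox4i1, the common form of a regulatory complex IV subunit, at 972 and 979. Assembly factors of complex I were far lower, with Ndufaf1 at 27.1 and 26.2 and Ndufaf7 at 22.6 and 30.5. Within complex IV the tissue forms were split sharply. Cox6a1, Cox6b1, Cox7a2 and Cox8a, the widely expressed forms, were at 250.4 TPM or more in the PBS libraries at 24 h, while Cox6b2, Cox7b2, Cox8b and Cox8c, known from muscle or testis, were listed at 0 in all 14 cell line libraries, as was Ndufs6b. Cox4i2 did not exceed 3.31 TPM and Cox6a2 did not exceed 2.77. The muscle form Cox7a1 was low but present, at 15.9 and 12.7 TPM. Of the 3 genes of the membrane ring subunit c, Atp5g3 (642 and 613 TPM) stood above Atp5g1 (159 and 154) and Atp5g2 (30.2 and 41.8). These 3 encode the same mature protein, and reads shared by close copies (also Ndufb4 with Ndufb4c, and pseudogenes) cannot be assigned with certainty.

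After 24 h of LPS most members were lower in WT cells, and the mitochondrial members fell further than the nuclear ones. The nuclear sum went from 23444 and 23148 TPM with PBS to 19520.5 and 20359.6 with LPS, and the mitochondrial sum from 60778 and 63741 to 35227 and 34794. LPS libraries thus held 85.6% and 56.2% of the PBS means. In the fit over all genes (limma on log2 of TPM + 1, Benjamini-Hochberg adjustment, threshold 0.05), 101 members reached a mean of 1 TPM and were tested. Of these, 75 were called, where 66.0% of the 11030 genes tested were called. Nuclear members were called lower in 60 of 89 cases (67.4%, against 45.1% of all genes) and higher in 4 (4.49%, against 20.9%), with a median log2 change of -0.29 where the median of all genes was -0.23. The downward count depends on the scale. TPM are shares of a library, and scaling by the median of ratios between libraries moved the median of all genes by 0.24. On that scale 18 nuclear members were called lower (20.2%, against 30.7% of all genes) and 17 higher (19.1%, against 31.6%), with a median of -0.028, while 11 of the 12 mitochondrial members stayed lower. In these cultures fewer cells of a kind and less RNA per cell cannot be told apart.

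**Figure D1:**
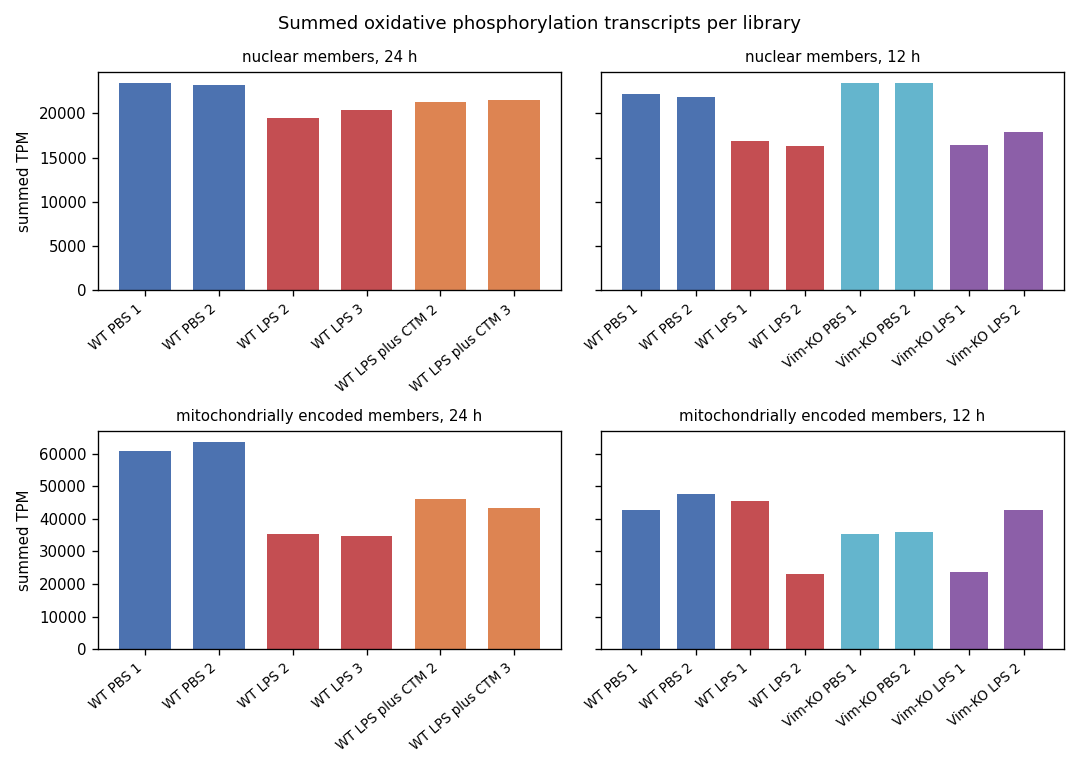
Summed TPM of the nuclear members (upper row) and the 12 mitochondrially encoded members (lower row) in each library of the 24 h (left) and 12 h (right) experiments, 1 bar per library, coloured by group. At 24 h both LPS bars lie below both PBS bars in both rows, whereas at 12 h the mitochondrial bars of each LPS group split into 1 high and 1 low library.

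All 4 subunits of complex II were called lower at 24 h, where 45.1% of all genes were, and their sum stood at 72.2% of PBS, the lowest share of the nuclear sets. Sdhb, the iron-sulphur subunit, was at 169 and 170.0 TPM with PBS and 114 and 115 with LPS, a log2 change of -0.56 ± 0.059 SE, adjusted p = 1.51e-04. Sdha, the flavoprotein that oxidises succinate, went from 183 and 170.2 to 122 and 118 TPM (-0.55 ± 0.061 SE, adjusted p = 1.87e-04). The PBS and LPS libraries did not overlap for either gene. The membrane anchors Sdhc and Sdhd changed by -0.29 and -0.46, and without the PBS library numbered 2 Sdhc no longer passed (adjusted p = 0.053). Sdha, Sdhb and Sdhd were still called lower after median-of-ratios scaling, and Sdhc was not.

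In complex I, 6 of 7 core subunits were called lower at 24 h (2 after scaling, near the share of all genes), and Ndufs7, which carries the last iron-sulphur cluster before ubiquinone, moved most. Ndufs7 stood at 179 and 171 TPM with PBS and 98.5 and 102 with LPS (-0.80 ± 0.059 SE, adjusted p = 2.75e-05). Accessory subunits were called lower in 19 of 30 cases (63.3%, against 45.1% of all genes) and higher in 1, but after scaling 4 were lower (13.3%, against 30.7%) and 8 higher, with a median of 0.03. Assembly factors were called lower in 5 of 8 cases (62.5%, against 45.1% of all genes). After scaling 3 were lower (37.5%, against 30.7%) and 1 higher (12.5%, against 31.6%). The accessory subunit Ndufb7 fell from 193 and 192 to 128 and 118 TPM (-0.65 ± 0.066 SE, adjusted p = 1.22e-04). Ndufaf1, an assembly factor of the membrane arm, fell from 27.1 and 26.2 to 14.6 and 11.9 TPM (-0.96 ± 0.11 SE, adjusted p = 2.73e-04). Ndufs4, an accessory subunit whose loss is known to cause a mitochondrial disease, rose, from 106 and 104 to 147 and 144 TPM (0.46 ± 0.053 SE, adjusted p = 2.27e-04). It was the accessory subunit called higher, and both LPS libraries lay above both PBS libraries. Ndufs7, Ndufb7, Ndufaf1 and Ndufs4 kept their calls and directions under median-of-ratios scaling.

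Complex III and complex IV were mixed at 24 h. In complex III 5 of 8 subunits were called lower (62.5%, against 45.1% of all genes), and 2 after scaling (25.0%, against 30.7%). The small subunit Uqcr11 led them, falling from 399 and 367 to 241 and 255 TPM (-0.63 ± 0.077 SE, adjusted p = 3.10e-04). The small subunit Uqcrq rose, from 410.2 and 429 to 499 and 543 TPM (0.31 ± 0.054 SE, adjusted p = 0.00174). Complex IV had 8 of 15 tested subunits lower (53.3%, against 45.1% of all genes) and 2 higher (13.3%, against 20.9%), and its sum stood at 92.1% of PBS, the highest share of the nuclear sets. After scaling none of its subunits was called lower (against 30.7% of all genes) and 4 were called higher (26.7%, against 31.6%). Cox7a2l, which links complex IV to complex III in supercomplexes, rose from 298 and 315 TPM to 471 and 537 (0.71 ± 0.071 SE, adjusted p = 1.08e-04). Both LPS libraries exceeded every other library of the 24 h experiment. Its relative Cox7a2 did not pass (0.04, adjusted p = 0.597), though it was called higher on the scaled values (0.30). The muscle form Cox7a1 went from 15.9 and 12.7 to 5.83 and 10.2 TPM (-0.80 ± 0.24 SE, adjusted p = 0.02), a call that ended without the PBS library numbered 1 or the LPS library numbered 2 and after scaling. Cox6a2, the other complex IV gene called higher, went from 0 in each PBS library to 0.82 and 1.52 TPM with LPS, a level at which no fold is given, and without the LPS library numbered 3 it was not called. Cox4i1 (-0.13) and Cox6a1 (-0.18) were called lower on the TPM scale but turned to 0.13 and 0.078 after scaling, and the call on Cox4i1 ended in 5 of 6 and that on Cox6a1 in 1 of 6 fits without a library. Cox6b1 (-0.12), Cox8a (-0.0047, 0.25 after scaling) and Cox4i2 (0.52) did not pass, and Ndufa4, a subunit now assigned to complex IV, was called lower (-0.45), though not after scaling.

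ATP synthase had 13 of 17 subunits called lower at 24 h (76.5%, against 45.1% of all genes) and none called higher (against 20.9%). After scaling 4 were lower (23.5%, against 30.7%) and 3 higher (17.6%, against 31.6%), both below the shares of all genes. Atp5g3 went from 642 and 613 to 425 and 418 TPM (-0.57 ± 0.044 SE, adjusted p = 3.23e-05), a call kept after scaling, and Atp5g1 from 159 and 154 to 111 and 122 (-0.43 ± 0.078 SE, adjusted p = 0.00221), a call lost after scaling. Atp5g2 did not pass (-0.29). Atp5b did not pass, at 1285 and 1299 TPM with PBS and 1298 and 1317 with LPS (0.018 ± 0.036 SE, adjusted p = 0.685), and was called higher after scaling (0.28). It was the nuclear member with the highest mean TPM at 24 h. Atp5s, a regulatory factor of the enzyme, had the lowest log2 change of the set (-0.57, from 10.7 and 12.5 to 9.57 and 5.76 TPM), but kept its call in only 1 of the 6 fits that left out a library.

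**Figure D2:**
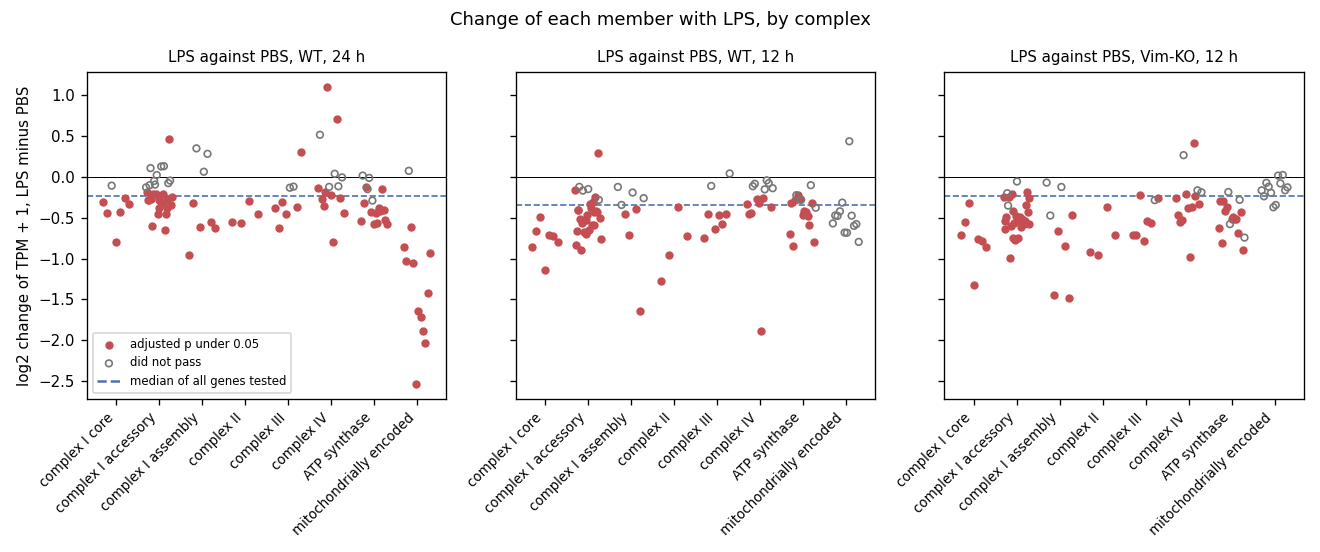
Log2 change of TPM + 1 with LPS for every tested member, by complex, in WT cells at 24 h and 12 h and in Vim-KO cells at 12 h. Filled points passed an adjusted p of 0.05, open points did not, and the dashed line is the median of all genes tested. Complex I core and complex II points lie below the line in the 12 h panels, and the mitochondrial points reach -2.54 at 24 h.

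The mitochondrial members did not fall evenly at 24 h. Those of complex I fell most: their sum went from 14424 and 14439.9 TPM with PBS to 4065 and 3356 with LPS, 25.7% of PBS. The pair of ATP synthase genes stood at 51.6% and the 3 complex IV genes at 75.4% of PBS. The gene nearest the start of the protein-coding part, mt-Nd1 (chrM:2751-3707), went from 4394 and 4259 TPM to 840.4 and 661 (-2.54 ± 0.10 SE, adjusted p = 1.47e-06). Its LPS libraries held 17.3% of the PBS mean, the lowest share of the 12. mt-Co1, which encodes the catalytic subunit of complex IV (chrM:5328-6872), did not fall: it stood at 10275 and 10824 TPM with PBS and 11069 and 11157 with LPS (0.076 ± 0.051 SE, adjusted p = 0.23), and scaling made it a call in the higher direction (0.33). The changes of the other 10 ran from -2.04 for mt-Nd4l, -1.89 for mt-Nd4, -1.71 for mt-Nd3, -1.65 for mt-Nd2 and -1.43 for mt-Nd5 to -1.05 for mt-Co3, -1.03 for mt-Atp8, -0.93 for mt-Nd6, -0.86 for mt-Atp6 and -0.61 for mt-Co2. These 10 passed, and no PBS library overlapped an LPS library. How reads from bases that neighbours share were divided between them is not given. mt-Nd6, read from the opposite strand, was the least abundant of the 12, at 132 and 148 TPM with PBS. The plot of mitochondrial members by library shows the even level of mt-Co1 beside the gap at the complex I genes.

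**Figure D3:**
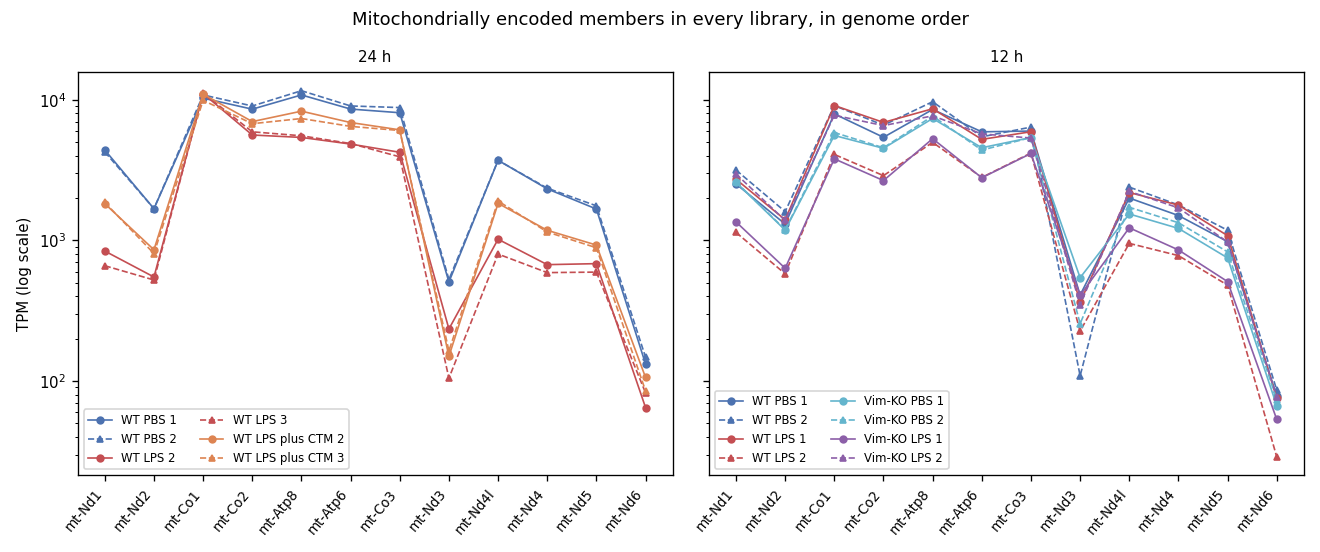
TPM (log scale) of the 12 mitochondrially encoded members in genome order, with 1 line per library, at 24 h (left) and 12 h (right). At 24 h the 3 groups do not overlap at any complex I gene except mt-Nd3 and meet at mt-Co1, whereas at 12 h the WT LPS library numbered 2 and the Vim-KO LPS library numbered 1 run below the rest at most genes.

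CTM given with LPS was compared with LPS alone at 24 h, and on the TPM scale members were mostly higher with CTM. The mitochondrial sum was 46152 and 43401 TPM with CTM, between the LPS and PBS libraries, and the complex I part of it 6881 and 6858 TPM, 185% of LPS alone. Of 101 members tested 33 were called, where 25.6% of all genes were called. Of 12 mitochondrial members 9 were called higher, and of 89 nuclear members 23 were called higher (25.8%, against 16.1% of all genes) and 1 lower (against 9.45%). The median change of nuclear members was 0.14, where that of all genes was 0.071. After scaling 8 mitochondrial and 13 nuclear members (14.6%) were higher, against 11.5% of all genes, and 5 nuclear members lower, against 13.9%. On that scale the nuclear median was 0.054, where that of all genes was -0.0062. The count of calls fell from 33 to 15 without the CTM library numbered 3.

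Among the mitochondrial members mt-Nd1, mt-Nd4l, mt-Nd4 and mt-Nd2 of complex I had the largest changes, while mt-Nd3, mt-Nd5 and mt-Nd6 of the same complex changed less than mt-Co3. mt-Nd1 stood at 1825 and 1862 TPM with CTM, against 840.4 and 661 with LPS alone (1.31 ± 0.10 SE, adjusted p = 4.52e-04), and neither CTM library reached a PBS library. mt-Nd4l, mt-Nd4 and mt-Nd2 were higher by 1.05, 0.88 and 0.63, and mt-Co3, mt-Atp8, mt-Nd5, mt-Atp6 and mt-Co2 by 0.58, 0.51, 0.51, 0.46 and 0.25. Calls on these 9 held when any library was left out, apart from mt-Co2 without the CTM library numbered 2 (adjusted p = 0.0511). mt-Co1 did not pass (-0.092, adjusted p = 0.228), nor did mt-Nd6 (0.38, adjusted p = 0.0915). For mt-Nd3 the LPS libraries stood at 235 and 105 TPM and the CTM libraries at 149.9 and 164, which overlap. The comparison of CTM with LPS shares the LPS libraries with that of LPS and PBS, so the values of both are given side by side and not related to each other.

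Nuclear members called with CTM changed by less. Ndufs7 stood at 134 and 142 TPM with CTM and 98.5 and 102 with LPS (0.45 ± 0.059 SE, adjusted p = 0.00264), and both CTM libraries lay between the LPS and PBS libraries. The assembly factor Ndufaf4 stood at 32.6 and 37.7 TPM against 24.0 and 23.2 (0.55 ± 0.10 SE, adjusted p = 0.00716), and Atp5g1 at 147 and 166 against 111 and 122 (0.42 ± 0.078 SE, adjusted p = 0.00898). Both gains no longer passed without the CTM library numbered 3, with adjusted p of 0.0565 and 0.0651. Sdhb (0.32), Ndufb7 (0.38), the complex III core protein Uqcrc1 (0.31) and Ndufa4 (0.31) were also called higher and also lost that call without this library, while Ndufs7 kept it in all 6 such fits. Cox7a2l was the nuclear member called lower with CTM, at 409 and 389.6 TPM against 471 and 537 (-0.33 ± 0.071 SE, adjusted p = 0.0147). That call ended without either CTM library or without the LPS library numbered 3. Among the tissue forms, Atp5g3 was higher (0.35), while Cox4i1 (0.032), Cox4i2 (-0.25), Cox6a1 (0.079), Cox6a2 (0.50), Cox6b1 (-0.034), Cox7a2 (0.039), Cox8a (0.0058) and Atp5g2 (0.29) did not pass.

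Cells given LPS and CTM were not at the PBS level. Against PBS 56 of 101 members were called, where 52.9% of all genes were called: 11 mitochondrial members lower, 37 of 89 nuclear members lower (41.6%, against 35.5%) and 8 higher (against 17.4%). After scaling 9 mitochondrial and 7 nuclear members were lower, against 22.9% of all genes, and 16 nuclear members higher, against 26.0%. Ndufs7 stood at 134 and 142 TPM against 179 and 171 with PBS (-0.35 ± 0.059 SE, adjusted p = 0.00264), and Cox7a2l (0.38), Ndufs4 (0.43) and Uqcrq (0.25) were above PBS. Ndufaf7, a methyltransferase that acts on a complex I core subunit, changed by -0.89, at 12.4 and 15.1 TPM against 22.6 and 30.5. Also lower were Cox7a1 (-0.88), Ndufv3 (-0.45), Uqcr11 (-0.40), Atp5h (-0.37) and Sdhd (-0.34), and Atp5f1 was higher by 0.15. The calls on Cox7a1, Atp5f1 and Uqcrq ended in at least 1 fit without a PBS or CTM library. Ndufs7, Uqcr11, Sdhd and Atp5h were no longer called after scaling. Among the tissue forms, Atp5g3 (-0.22) and Cox6b1 (-0.16, and 0.019 after scaling) were called lower on the TPM scale alone, and the call on Cox6b1 ended in all 6 fits without a library.

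At 12 h the loss with LPS in WT cells was deepest in the complex I core and complex II. The nuclear sum went from 22190.1 and 21889 TPM with PBS to 16819 and 16332 with LPS, 75.2% of PBS. The sum of complex II stood at 56.1%, that of the complex I core at 59.1% and that of complex IV at 82.2% of PBS. Of 100 members tested 68 were called, where 70.9% of the 11115 genes tested were called, so the share of members called was no greater than that of all genes. It differed by direction: 67 of 88 nuclear members were called lower (76.1%, against 53.1%) and 1 higher (1.14%, against 17.8%). Their median change was -0.43 where all genes had -0.35, and scaling, which moved that median by 0.35, left 24 lower (27.3%, against 31.8%) and 10 higher (11.4%, against 33.3%) with a median of -0.046. In the complex I core all 7 were called lower, and 6 remained so after scaling. Complex II had 4 of 4 lower, and 3 after scaling. The macrophage marker sum went from between 16458 and 16554 TPM to between 9833 and 10396 in the same libraries, with Lyz2 at means of 13363 and 7841. The 6 neutrophil markers, led by S100a8, stood at 895 to 911 TPM with LPS while Ly6g, Retnlg and Ngp were at 0. The part of these markers in the members' changes was not tested.

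Sdha had the largest change of the complex II genes at 12 h. It went from 208 and 204 TPM with PBS to 80.2 and 88.7 with LPS (-1.28 ± 0.064 SE, adjusted p = 1.09e-06), 41.0% of the PBS mean. Sdhb went from 199 and 209 to 109 and 100.5 TPM (-0.96 ± 0.066 SE, adjusted p = 6.32e-06) and Sdhd from 253 and 241 to 153 and 145 (-0.73 ± 0.057 SE, adjusted p = 1.30e-05). No LPS library reached a PBS library for these 3. Sdhc changed less (-0.37, and 0.0098 after scaling), and its call ended without the PBS or the LPS library numbered 1.

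In complex I at 12 h Ndufs7 was again the lowest core subunit, going from 175 and 167 to 72.6 and 81.8 TPM (-1.14 ± 0.071 SE, adjusted p = 3.66e-06). The other core subunits ranged from -0.86 for Ndufs1 to -0.49 for Ndufs3. Ndufa5 had the lowest change of the accessory subunits, from 130.0 and 139 to 69.1 and 74.5 TPM (-0.89 ± 0.09 SE, adjusted p = 5.16e-05), and Ndufaf7 of the assembly factors, from 22.5 and 21.9 to 5.85 and 7.01 TPM (-1.65 ± 0.19 SE, adjusted p = 1.11e-04). Ndufaf1, the most changed factor at 24 h, did not pass at 12 h (-0.12, adjusted p = 0.306). Ndufs4 was the 1 nuclear member called higher, at 92.6 and 88.3 TPM with PBS and 110.4 and 111 with LPS (0.29 ± 0.061 SE, adjusted p = 0.00291), as it was in WT cells at 24 h.

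In complex III 6 of 8 tested subunits, in complex IV 8 of 14 and in ATP synthase 13 of 17 were called lower at 12 h, and none higher. The shares lower were 75.0%, 57.1% and 76.5%, and that in complex IV was near the 53.1% of all genes. Of all genes 17.8% were called higher. After scaling 3 were lower (37.5%) and 2 higher in complex III, 1 lower and 5 higher (35.7%) in complex IV, and 3 lower (17.6%) and 1 higher in ATP synthase. On that scale 31.8% of all genes were lower and 33.3% higher. Uqcr10 went from 363 and 376 to 238 and 203 TPM (-0.75 ± 0.10 SE, adjusted p = 2.28e-04) and Atp5c1, the gamma subunit that turns in the rotor of ATP synthase, from 325 and 328 to 184 and 177 (-0.85 ± 0.056 SE, adjusted p = 4.90e-06). Cox7a1 went from 8.0 and 5.86 to 1.71 and 0.663 TPM, a level near the lower limit of the test (-1.89 ± 0.25 SE, adjusted p = 2.61e-04). All 3 calls remained after scaling. Among the common forms of complex IV, Cox4i1 (-0.34), Cox6b1 (-0.28), Cox7a2 (-0.25) and Cox8a (-0.36) were called lower, but after scaling their changes were 0.05, 0.11, 0.13 and 0.022. Atp5g1 was called lower and also turned, from -0.27 to 0.12. Cox7a2l, higher at 24 h, did not pass at 12 h on the TPM scale (-0.15) and was called higher after scaling (0.23). Cox6a1 (-0.11, and 0.27 after scaling) and Ndufa4 (-0.14 and 0.25) did the same. Atp5g3 was called lower (-0.46), though not after scaling, while Atp5g2 (-0.28) and Cox6a2 (-0.084) did not pass.

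Mitochondrial members gave no call at 12 h and the libraries of each LPS group stood far apart. The mitochondrial sum was 42589.5 and 47548 TPM with PBS in WT cells, but 45414 in the LPS library numbered 1 and 23132 in that numbered 2. In Vim-KO cells it was 35299 and 35848 TPM with PBS, 23739.5 in the LPS library numbered 1 and 42761 in that numbered 2. Thus 1 LPS library of each genotype fell below its PBS libraries and the other did not. mt-Nd1 shows the split: WT cells held 2523 and 3164 TPM of it with PBS and 2723 and 1139.6 with LPS, and Vim-KO cells 2592 and 2596 with PBS and 1355 and 2969.8 with LPS. mt-Co1, level at 24 h, took part in it, with 9106 and 4088 TPM in WT and 3804 and 7763 in Vim-KO cells given LPS. The nuclear sums of the same libraries did not split: 16819 and 16332 TPM in WT and 16371 and 17917 in Vim-KO cells. The median mitochondrial change was -0.52 in WT cells with all libraries, where 0 of 12 passed in limma. Without the WT LPS library numbered 1 the median was -1.06 and 10 of 12 were called lower, and without that numbered 2 it was -0.023 with none called. In Vim-KO cells the median was -0.14, and 0.26 and -0.58 without the LPS library numbered 1 and 2.

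The experiments at 24 h and 12 h share no library, so the WT response can be set side by side over the 88 nuclear members tested in both. Of these, 50 were called lower at both times, 10 at 24 h only, 17 at 12 h only and 11 at neither. Of all genes 45.1% were called lower at 24 h and 53.1% at 12 h, and their overlap between times was not counted. After scaling 18 of 89 nuclear members were lower at 24 h and 24 of 88 at 12 h, against 30.7% and 31.8% of all genes. Across the 88 members the log2 changes had a Pearson r of 0.504, given as a description since genes within a library are not independent. Ndufs7 was among the lowest at both times (-0.80 and -1.14) and Ndufs4 higher at both (0.46 and 0.29). On the TPM scale Cox7a2l (0.71 and -0.15) and Ndufaf1 (-0.96 and -0.12) passed at 24 h only. After median-of-ratios scaling Cox7a2l was called higher at 12 h as well. The difference between times was not tested, since levels were compared only within an experiment.

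Vim-KO cells, which lack most of the transcript of the filament protein vimentin, also held less of most nuclear members with LPS. Their nuclear sum went from 23385 and 23414 TPM with PBS to 16371 and 17917 with LPS, 73.3% of PBS. Of 100 members tested 74 were called, where 66.4% of all genes were called: 73 of 88 nuclear members lower (83.0%, against 45.8%), 1 higher (against 20.5%) and no mitochondrial member. The median change of nuclear members was -0.51 where all genes had -0.23. After scaling 41 nuclear members were lower (46.6%, against 31.9%) and 1 higher (against 32.3%), with a median of -0.25. All 7 core subunits of complex I and all 4 subunits of complex II were called lower on the TPM scale.

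Ndufs7 again led the complex I core in Vim-KO cells, going from 185 and 186 TPM to 75.1 and 72 (-1.32 ± 0.071 SE, adjusted p = 1.65e-06). Sdhb went from 227 and 214 to 111 and 115 TPM (-0.96 ± 0.066 SE, adjusted p = 6.60e-06) and Atp5o, the stalk subunit OSCP of ATP synthase, from 477 and 456 to 237 and 262 (-0.90 ± 0.065 SE, adjusted p = 8.35e-06). In each of these no LPS library reached a PBS library. The lowest of the remaining classes were Ndufaf7 (-1.48), Ndufa5 (-0.99), Uqcrc1 (-0.79) and Cox7a1 (-0.98, a call that ended without the Vim-KO PBS library numbered 1). Cox7a2l was the member called higher, at 193 and 173 TPM with PBS and 230.3 and 262 with LPS (0.42 ± 0.08 SE, adjusted p = 0.00187). Cox4i1 (-0.25) and Cox6b1 (-0.21) were called lower but turned to 0.0097 and 0.047 after scaling, and Cox6b1 was not called without the Vim-KO PBS library numbered 2 or the Vim-KO LPS library numbered 1. The lower calls on Cox8a (-0.33) and Cox7a2 (-0.37) were lost after scaling, and that on Cox6a1 (-0.53) was kept, as was that on Atp5g3 (-0.51).

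Genotypes were first compared without LPS. Of 100 members 20 were called between Vim-KO and WT cells given PBS, fewer than the 43.0% of all genes called. They were 15 nuclear members higher and 5 lower, where 17.7% of all genes were higher and 25.4% lower. After scaling they were 24 and 4, where 21.2% and 23.0% of all genes were. Atp5mpl, a small membrane subunit of ATP synthase, was at 379 and 352 TPM in WT and 633 and 647 in Vim-KO cells (0.81 ± 0.11 SE, adjusted p = 6.87e-04). Cox5a, a matrix-side subunit of complex IV, was at 784 and 762 TPM in WT and 553 and 567 in Vim-KO cells (-0.46 ± 0.064 SE, adjusted p = 7.66e-04). Neither overlapped between genotypes, and both calls held with any library left out. The same held for Ndufb4, higher at 27.2 and 25.3 TPM against 17.7 and 17.8 (0.54), for Uqcrc2, a core protein of complex III (0.31), and for Sdhd, lower at 197 and 201 TPM against 253 and 241 (-0.31). Ndufaf6 (0.35), Ndufa13 (-0.35) and Atp5l (-0.38) were named with these but lost their calls without the WT PBS library numbered 2, and in other such fits. Leaving out that library took the count from 20 to 8, and a fit on the 4 PBS libraries alone took it to 40. Among the tissue forms Atp5g3 was higher in Vim-KO cells (0.22), a call that ended without either WT PBS library or the Vim-KO PBS library numbered 1, while Cox4i1 (-0.095), Cox6a1 (0.038), Cox6a2 (-0.45), Cox6b1 (-0.012), Cox7a2 (-0.051), Cox8a (-0.0076), Ndufa4 (0.14), Atp5g1 (0.052) and Atp5g2 (0.69) did not pass. Mitochondrial members gave no call in the fit over all groups, with a median of -0.31. For 10 of the 12 both Vim-KO libraries lay below both WT libraries. That count was not made for all genes, so it describes these libraries and is not a result about the members. The fit on the 4 PBS libraries alone called 8 of the 12 lower, where 3159 of the 11115 genes tested were lower. In either direction that fit called 5459 of those genes, against 40 of the 100 members.

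With LPS 23 of 100 members were called between genotypes, against 44.7% of all genes. They were 17 nuclear members higher and 6 lower in Vim-KO cells, where 24.1% of all genes were higher and 20.6% lower. After scaling they were 6 and 8, where 20.4% and 25.6% of all genes were, so the balance of calls depends on the scale. Atp5mpl stayed higher, at 424 and 531 TPM against 309 and 274 (0.70 ± 0.11 SE, adjusted p = 0.00138). Cox5a stayed lower, at 387 and 427 TPM against 578 and 555 (-0.48 ± 0.064 SE, adjusted p = 6.66e-04), and so did Sdhd, at 121 and 122 against 153 and 145 (-0.29 ± 0.057 SE, adjusted p = 0.00438). These 3 were the members of both genotype comparisons whose calls held in every fit that left out a library. Atp5l was lower, at 307 and 416 TPM against 558 and 495 (-0.56 ± 0.13 SE, adjusted p = 0.0105), and lost its call without the WT LPS library numbered 1. The assembly factor Ndufaf3 (-0.60) and the accessory subunit Ndufb9 (-0.18) were lower, and Ndufa10 (0.46), Ndufaf4 (0.38), Sdha (0.28), Uqcrc2 (0.25) and Ndufs1 (0.22) higher. Each of these 7 lost its call without the WT LPS library numbered 1, and leaving out either WT LPS library took the count from 23 to 10. Ndufs1 was also not called after scaling. Cox6a1 was lower in Vim-KO cells (-0.38), at 333 and 320.3 TPM against 412 and 437, a call that ended without the WT LPS library numbered 2. The mitochondrial members gave no call, with a median of 0.045.

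The LPS response itself differed between genotypes for 8 of 100 members (test of the interaction), against 20.6% of all genes: 3 had the higher change in Vim-KO cells (13.7% of all genes did) and 5 the lower (6.96%). Cox7a2l went from 249 and 255 to 229.7 and 224 TPM in WT cells and from 193 and 173 to 230.3 and 262 in Vim-KO cells, a difference in log2 change of 0.57 ± 0.11 SE, adjusted p = 0.011. Ndufs4 went from 92.6 and 88.3 to 110.4 and 111 TPM in WT cells and from 109.7 and 116 to 100.4 and 98.7 in Vim-KO cells (-0.47 ± 0.086 SE, adjusted p = 0.00784). The sign of each gene's LPS change thus differed between genotypes on the TPM scale. After scaling the change of Ndufs4 in Vim-KO cells was 0.078 and that of Cox7a2l in WT cells 0.23, so that both genes then had the same sign in both genotypes and by different amounts. Both interaction calls held in all 8 fits that left out a library and after scaling, the only members of the 8 for which both held. Both also differed between genotypes with PBS, Cox7a2l by -0.46 and Ndufs4 by 0.32 in Vim-KO against WT cells. The other 6 were Ndufv3 (0.50), Sdha (0.36), Cox6a1 (-0.41), Ndufaf6 (-0.45), Ndufb9 (-0.33) and Ndufaf3 (-0.99), and each lost its call in 3 or more of those fits. Sdha went from 196 and 194 to 102 and 103 TPM in Vim-KO cells, a smaller loss than in WT cells, but this difference was not called after scaling. Ndufaf3 went from 20.5 and 24.2 to 15.6 and 16.3 TPM in WT cells and from 29.4 and 29.7 to 12.3 and 8.45 in Vim-KO cells. The neutrophil marker sum was 895 to 911 TPM in WT cells with LPS and 13.5 to 13.6 in Vim-KO cells. Nearly all of it was S100a8 (means of 899.8 and 13.0 TPM), and Ly6g, Retnlg and Ngp were at 0 in both groups. The part of this sum in these differences was not tested.

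**Figure D4:**
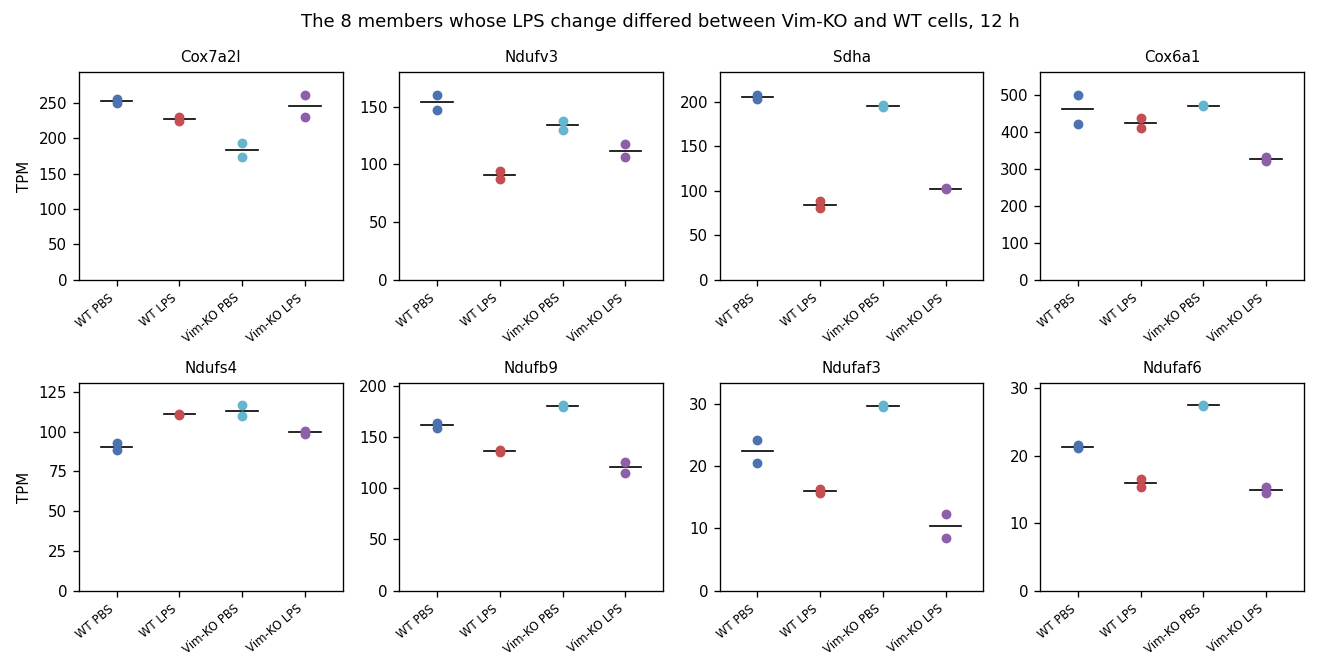
TPM of the 8 members with a called interaction in each of the 8 libraries of the 12 h experiment, with 1 point per library and a bar at the group mean. With LPS the Cox7a2l points lie higher in Vim-KO cells and not in WT cells, and the Ndufs4 points lie higher in WT and lower in Vim-KO cells.

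Other genes of the pathway were read from 4 lists. Of the electron carriers and subunits that the symbols do not cover, 8 lower and 0 higher of 12 tested were called with LPS at 24 h in WT cells and 8 lower and 1 higher of 12 tested at 12 h (after scaling 4 and 2, and 7 and 2). Of all genes 45.1% were lower and 20.9% higher at 24 h, and 53.1% and 17.8% at 12 h. After scaling 30.7% of all genes were lower and 31.6% higher at 24 h, and 31.8% and 33.3% at 12 h. mt-Cytb, the mitochondrial gene of complex III, moved with the members, at 3709 and 3818 TPM with PBS, 1153 and 983 with LPS and 1805 and 1849 with LPS and CTM at 24 h (-1.82 and, against LPS, 0.78). Dhodh, the pyrimidine enzyme that feeds electrons to ubiquinone, was lower at both times (-0.78 and -1.32). Of the assembly factors, 22 lower and 5 higher of 46 tested were called at 24 h and 27 lower and 5 higher of 45 tested at 12 h (11 and 8, and 14 and 13, after scaling), and the share of lower calls at 24 h was near that of all genes. Cox17, the copper chaperone of complex IV, rose, from 260.2 and 264.6 to 654 and 673 TPM at 24 h (1.34 ± 0.048 SE, adjusted p = 1.02e-06) and from 251 and 261 to 605 and 573 at 12 h (1.20). Lyrm7 and Bcs1l, which insert the Rieske protein into complex III, were lower at 12 h (-1.78 and -1.23).

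Genes that transcribe and look after the mitochondrial genome and its RNA were called lower more often than higher with LPS at both times, as were all genes (45.1% lower and 20.9% higher at 24 h, 53.1% and 17.8% at 12 h). At 24 h 14 lower and 3 higher of 24 tested were called (10 and 4 after scaling), and at 12 h 16 lower and 2 higher of 24 tested (8 and 4). After scaling 30.7% of all genes were lower and 31.6% higher at 24 h, and 31.8% and 33.3% at 12 h. The 8 of 24 lower at 12 h on that scale were thus near the share of all genes. Twnk, the helicase of the mitochondrial genome, went from 27.5 and 26.0 to 10.3 and 10.4 TPM at 24 h (-1.29 ± 0.094 SE, adjusted p = 2.49e-05), and Tfam, the factor that packs and transcribes that genome, from 69.9 and 67.5 to 31.1 and 37.5 (-0.99 ± 0.11 SE, adjusted p = 2.21e-04). Both were also lower at 12 h (-1.15 and -1.01), in all 8 fits without a library and after scaling, as they were at 24 h in all 6. Polrmt, the polymerase, changed by -0.81 at 24 h and -0.77 at 12 h. With CTM against LPS alone 0 lower and 8 higher of 24 tested were called, where 9.45% of all genes were lower and 16.1% higher. After scaling 2 were lower and 6 higher, where 13.9% of all genes were lower and 11.5% higher. The 8 called higher on the TPM scale included Tfb2m (0.60), Twnk (0.57) and Tfam (0.41). Tfam lost that call after scaling and in 4 of 6 fits without a library. In Vim-KO cells 12 of 24 were higher than in WT cells with LPS and none lower, where 24.1% of all genes were higher and 20.6% lower. After scaling 7 were higher and none lower, where 20.4% of all genes were higher and 25.6% lower. The 12 were led by Elac2, which trims the mitochondrial transcripts (0.61), Twnk (0.58) and Tefm (0.57).

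Among regulators of respiratory genes, 5 lower and 1 higher of 10 tested were called at 24 h and 7 lower and 1 higher of 10 tested at 12 h in WT cells, and after scaling 4 lower and 2 higher at each time. At 24 h the 5 of 10 are near the 45.1% of all genes called lower, and at 12 h 53.1% of all genes were called lower. After scaling 30.7% of all genes were lower and 31.6% higher at 24 h, and 31.8% and 33.3% at 12 h. The coactivator Ppargc1b was lower at both times (-0.83 and -1.22), and so was Nrf1, whose letters were searched above (-0.48 and -1.02). At 24 h the call on Nrf1 was lost after scaling. Hif1a, which encodes the hypoxia factor that favours glycolysis, was higher at both times (0.77 and 0.52). In Vim-KO cells Hif1a was above WT with PBS (109 and 106 TPM against 48.6 and 51.4, 1.09), and Higd1a, a hypoxia-induced partner of complex IV, above WT with PBS (0.75) and with LPS (135 and 169 TPM against 53.8 and 52.9, 1.48). The members with NRF1 letters in their window had a median LPS change of -0.34 at 24 h and -0.59 at 12 h over 19 genes, and those without of -0.27 and -0.43 over 54. With ETS letters the medians were -0.43 and -0.42 over 18 genes, and without -0.28 and -0.46. With SP letters they were -0.24 and -0.43 over 33 genes, and without -0.33 and -0.45. With TATA letters they were -0.27 and -0.43 over 5 genes, and without -0.29 and -0.45. These differences were not tested.

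In liver 8 members were listed, with 1 library per group and therefore no test. Genes are in that list only where WT liver with LPS and WT liver with PBS differ at least 2-fold, so the size of that difference is set by the list, and members within 2-fold are not in it. All 8 were lower with LPS in WT liver. By the difference in log2 of TPM + 1, 46.3% of the 5298 listed genes were lower by at least 1 and 66.9% differed by at least 1. No mitochondrially encoded gene was listed, so the mitochondrial members were not analysed here for liver. Of the other pathway genes 38 were listed, of which 35 were lower, where 3839 of the 5298 listed genes were. Whole liver is mostly hepatocytes, whose marker Cyp2e1 went from 5513 to 2632 TPM with LPS (the other 5 hepatocyte markers are not in the list), while the neutrophil marker sum went from 1.35 to 80.8. Their part in the members' levels was not tested.

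Ndufs7, low with LPS in the cell line at both times, stood at 139 TPM with PBS, 53.7 with LPS and 45.9 with LPS and CTM in WT liver. The accessory subunits Ndufa6 (201 TPM with PBS, 69.2 with LPS and 97.3 with LPS and CTM) and Ndufb10 (147 TPM with PBS, 58.0 with LPS and 56.2 with LPS and CTM) were similar in size. Ndufb4c, a processed pseudogene in the annotation, stood at 92.6 TPM with PBS, 39.4 with LPS and 42.3 with LPS and CTM. CTM did not bring any of these near the PBS value. Uqcr11 of complex III was the most abundant of the 8, at 282 TPM with PBS, 137 with LPS and 146 with LPS and CTM. The assembly factors Ndufaf4 (9.57 TPM with PBS, 1.55 with LPS and 2.63 with LPS and CTM) and Ndufaf3 (6.71 TPM with PBS, 2.66 with LPS and 1.45 with LPS and CTM) were low throughout, as was Ndufa4l2 (2.55 TPM with PBS, 0.48 with LPS and 0.17 with LPS and CTM). None of the 8 differed by 1 or more between LPS with CTM and LPS alone, where 1.59% of listed genes did, and 4 were lower and 4 higher.

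Between the LPS libraries without and with macrophage depletion the members differed little. The Kupffer cell marker sum was 62.9 TPM without and 10.2 with depletion, and the neutrophil sum 112 and 232. Ndufs7 stood at 44.1 TPM without and 43.9 with depletion, and Ndufa6 at 106 and 133. None of the 8 differed by 1 or more, where 8.83% of listed genes did, and Ndufaf4, at 3.49 and 5.75 TPM, differed most. The undepleted library of this pair, also WT with LPS, was by the labels extracted on another date than the other WT LPS library and held 234 TPM of Uqcr11 against 137.

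TG2-KO liver held a smaller LPS difference for all 8. Between its LPS and PBS libraries 1 was lower by at least 1, where 17.1% of listed genes were lower and 31.9% differed by that much: Ndufaf4, at 9.20 TPM with PBS and 2.20 with LPS. Ndufs7 stood at 64.9 and 70.0 TPM and Ndufa6 at 147 and 158, in both of which the LPS library was the higher. For Ndufs7 the TG2-KO PBS library was already below the WT PBS library (139 TPM), a difference of -1.09, and it was the 1 member to differ by 1 or more there, where 4.76% of listed genes were lower and 7.7% differed by that much. With LPS all 8 were higher in TG2-KO than in WT liver, and Ndufa6 was the 1 to differ by at least 1 (1.18), where 4.27% of listed genes were higher and 6.3% differed by that much. Since the list was chosen on the WT LPS and PBS libraries, a smaller difference in other libraries is built into it in part, and the list's median difference in TG2-KO liver was -0.32 for the members and -0.38 for all listed genes. TG2-KO livers were by the labels extracted on another date than WT livers, and genotype and date cannot be told apart.

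**Figure D5:**
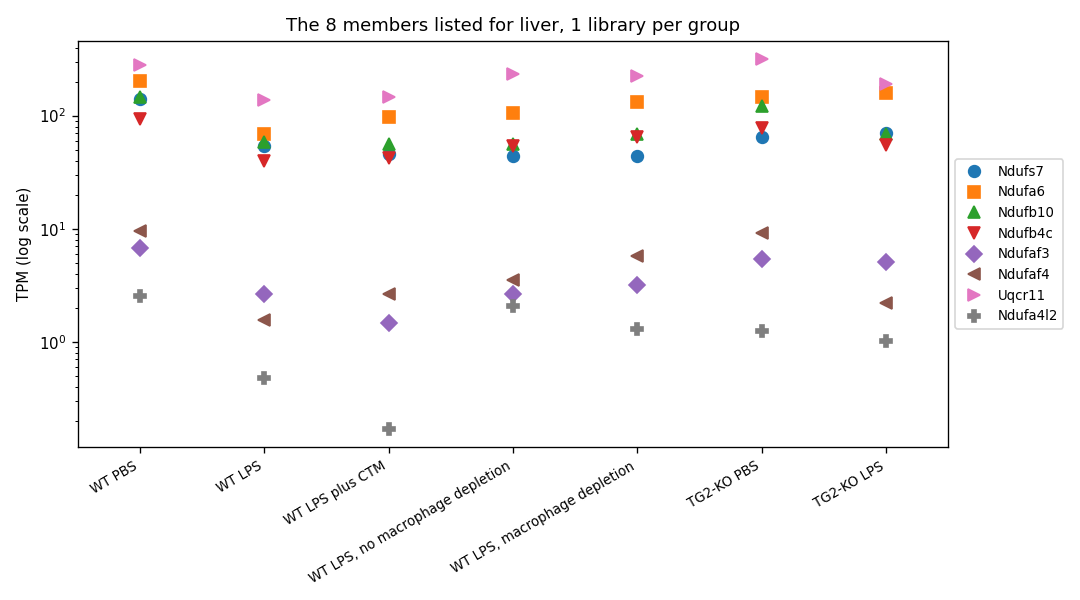
TPM (log scale) of the 8 members listed for liver in each of the 7 liver libraries, 1 library per group, with 1 symbol per gene. Every symbol lies lower in the WT LPS column than in the WT PBS column. The list requires a difference of at least 2-fold between these columns, in either direction. Ndufs7 and Ndufa6 lie at nearly the same height in both TG2-KO columns.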

How the data were processed

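The deposited values are TPM per gene, which the authors made with Salmon on mm10/GRCm38 per the submitters' processing notes; the Salmon version and annotation are not given in the sources used here. TPM hold no read counts, so depth is unknown and no count test was used. The cell line libraries sum to between 993386.5 and 999190.5 TPM over the genes listed. In the 24 h table the LPS and CTM columns are numbered 2 and 3 where the labels give 1 and 2, so those columns were tied to their groups and keep the numbers of the table.

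For each cell line experiment limma 3.58.1 (R 4.3.3) with a trend was fitted to log2(TPM + 1) over all groups, for genes averaging 1 TPM or more, with Benjamini-Hochberg adjustment over all genes tested and a threshold of 0.05. Counts are also given after scaling libraries by the median of ratios. A change on this scale understates that of low genes. Liver was described by differences of log2(TPM + 1), counted at 1 or more. The fit was tested on simulated data.

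All mitochondrial members, the tissue forms of subunits and, for each comparison and class, the called members with the highest and lowest change that did not overlap between groups and reached 5 TPM are named, with up to 4 of each list of other pathway genes. Atp5b, Ndufs1, Ndufs3, the other complex II members, and values of a named gene in further comparisons were added after they were seen. The members, lists and tests were chosen with earlier results of these data known. The alternatives were another pseudocount, no filter or a stricter filter, 2 rescalings, no trend, fits on the samples of a contrast alone, a minimum log2 change, a replicate block and each library left out.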

Additional observations from a re-analysis of the deposited data

Results flagged for a closer look

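The LPS response at 12 h differed between Vim-KO and WT cells, by the interaction term over all genes in limma, for 8 members. The differences in log2 change, Vim-KO minus WT, were 0.57 for Cox7a2l, 0.50 for Ndufv3 and 0.36 for Sdha on the higher side. On the lower side they were -0.33 for Ndufb9, -0.41 for Cox6a1, -0.45 for Ndufaf6, -0.47 for Ndufs4 and -0.99 for Ndufaf3. Only Cox7a2l and Ndufs4 kept the call with each of the 8 libraries left out, and Ndufv3 and Sdha lost it after median-of-ratios scaling.

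In liver LPS went with opposite signs in the genotypes for 2 members, with 1 library each and no test of the difference. Ndufa6 differed by 0.10 between LPS and PBS in TG2-KO liver and by -1.53 in WT liver. Ndufs7 differed by 0.11 in TG2-KO and by -1.36 in WT liver. The WT libraries chose the genes listed, and the genotypes were extracted on different dates, so these cannot be told apart.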

How the results depend on the processing

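Of 145 counts of members under the alternatives, 108 stayed within 1.5 times the reported count and 37 moved further. Of 3996 log2 changes of named members 15 were counted as turned in sign, 245 lost their call and 50 gained one. The count of 15 does not hold every turn of sign in the text. Median-of-ratios scaling also turned the changes given above for Sdhc (WT cells, 12 h) and Ndufs4 (Vim-KO cells). Under median-of-ratios scaling the members called, of 101 tested at 24 h and 100 at 12 h, were 47 (LPS, 24 h), 32 (CTM against PBS), 34 (LPS, WT, 12 h), 42 (LPS, Vim-KO) and 14 (genotype with LPS). Of all genes, 6864 and 5393 of 11030 at 24 h and 7238, 7135 and 5111 of 11115 at 12 h were called on that scale, in the same order. That scaling turned the sign of the change with LPS at 24 h for Cox4i1 (0.13), Cox6a1 (0.078) and Cox8a (0.25), with CTM against PBS for Cox6b1 (0.019), in WT cells at 12 h for Atp5g1 (0.12), Cox4i1 (0.050), Cox6a1 (0.27), Cox6b1 (0.11), Cox7a2 (0.13), Cox7a2l (0.23), Cox8a (0.022) and Ndufa4 (0.25), and in Vim-KO cells for Cox4i1 (0.0097) and Cox6b1 (0.047). A minimum log2 change of 0.5, which by construction leaves fewer calls, gave 29, 8 (CTM against LPS), 12, 33, 44, 2 (genotype with PBS), 3 and 3 (interaction). Of all genes it left 5245, 1349, 3653, 5763, 5279, 2761, 2769 and 1803, in the same order. Without the trend there were 20 (CTM against LPS), 13 (genotype with PBS) and 5 (interaction), where 2285, 4574 and 2093 of all genes were called. Fits on the samples of the contrast alone gave 40 for genotype with PBS and 8 with LPS, where 5459 and 3606 of all genes were called. The cause was not tested.

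With each library left out in turn, counts ran from 60 to 70 (LPS, 24 h), 15 to 31 (CTM against LPS), 39 to 59 (CTM against PBS), 60 to 71 (LPS, WT, 12 h), 62 to 76 (LPS, Vim-KO), 8 to 29 (genotype with PBS), 10 to 26 (genotype with LPS) and 2 to 10 (interaction, lowest without the Vim-KO PBS library numbered 2). The mt-Nd3 difference of CTM against LPS was 0.57 without the LPS library numbered 2 and -0.58 without that numbered 3. The number of all genes called moved too in the fits without a library. A replicate block gave 28 calls for CTM against LPS, 67 for LPS in WT and 73 in Vim-KO cells, 17 and 19 between genotypes and 4 for the interaction. Of all genes it called 2204, 7677, 7169, 4393, 4603 and 1835, in the same order. Same-numbered samples did not deviate together (correlations from -0.22 to 0.098 at 12 h and -0.031 between CTM and LPS), so the numbers were not taken to pair samples.

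In liver a log2 difference of at least 2 left 1 member for LPS in WT, 0 in TG2-KO and 0 in both comparisons of genotypes, and a pseudocount of 0.1 gave 1 for CTM. Depth is unknown, and members listed at 0 may be present below detection. With 2 libraries per group 1 library can make or end a call. Reads shared between close copies or overlapping mitochondrial genes could shift single members, and the liver list holds too few members to describe the complexes.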
